A study of Mus musculus with 9 samples.

Results

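The 38 genes described here encode ligands, receptors, signal transducers, feedback inhibitors and early target genes of 5 signalling pathways that govern mouse embryonic stem cells: LIF (5 genes), FGF-ERK (8), WNT (9), NODAL (9) and BMP (7). They were given as a list of names with no rule on peak values, although the list was drawn up with earlier results of these data known. Of the 38 names, 37 were found among the gene symbols of the RefSeq annotation of mm10, beside 21887 protein-coding genes in all, and Pitx2os (NODAL) had no match. Peaks were counted within 50 kb of each gene, where 36 of the 37 had a peak in at least 1 library, and within 1 kb of either end of the gene.

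The peaks came from ATAC-seq, in which the Tn5 transposase cuts and tags accessible DNA, in mouse E14 embryonic stem cells of a variant called TOT2N. One line was wild type (WT), one carried a stable integration of a TetR construct and one a stable integration of a TetR-MYBTA construct, with 3 libraries each and 9 in all. TetR is the bacterial tetracycline repressor, a DNA-binding protein, and the study's title concerns the transcription factor MYB. The labels give no culture medium, no clone number and no promoter for the constructs, and they do not say whether the libraries of a line came from separate cultures, so all spreads and p-values measure differences between libraries, which may be technical.

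LIF binds LIFR and gp130 (encoded by Il6st) and activates STAT3, which holds mouse embryonic stem cells in self-renewal. FGF4, made by the cells themselves, acts through FGF receptors and ERK and readies them to differentiate, while WNT acts through beta-catenin to relieve repression by TCF7L1, and BMP acts through SMAD1 to induce the Id genes. NODAL acts with its co-receptor CRIPTO (Tdgf1) through SMAD2 and SMAD3 and induces its own antagonists Lefty1 and Lefty2. Each pathway also switches on inhibitors of itself, among them Socs3, the Sprouty genes, Dusp6, Axin2, Notum and Smad7.

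Promoter sequence is shown for 6 members, at least 1 from each pathway, because they have motif matches in this stretch and either a variable gene-end peak or windows described further on. The RefSeq promoter table (GRCm38.p6, the coordinates of mm10) held 24 of the members with 27 starts. The lines give the 250 bases before the listed start, 5′ to 3′ on the gene's strand, in lower case with matches to STAT, TCF/LEF, SMAD1/4, FOXH1, cAMP response element or E-box letters in capitals. Lifr is at chr15:7129322-7129571 on the plus strand (the first of its 2 listed starts), Socs3 at chr11:117969367-117969616 on the minus strand, Fgf4 at chr7:144861136-144861385 on the plus strand, Sp5 at chr2:70474673-70474922 on the plus strand, Tdgf1 at chr9:110946159-110946408 on the minus strand, and Bmp4 at chr14:46390670-46390919 on the minus strand.
Lifr: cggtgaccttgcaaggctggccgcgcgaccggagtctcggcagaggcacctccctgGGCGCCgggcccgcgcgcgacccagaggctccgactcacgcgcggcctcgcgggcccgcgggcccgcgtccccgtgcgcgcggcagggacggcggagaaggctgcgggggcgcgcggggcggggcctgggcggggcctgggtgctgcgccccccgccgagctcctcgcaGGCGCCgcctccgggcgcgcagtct
Socs3: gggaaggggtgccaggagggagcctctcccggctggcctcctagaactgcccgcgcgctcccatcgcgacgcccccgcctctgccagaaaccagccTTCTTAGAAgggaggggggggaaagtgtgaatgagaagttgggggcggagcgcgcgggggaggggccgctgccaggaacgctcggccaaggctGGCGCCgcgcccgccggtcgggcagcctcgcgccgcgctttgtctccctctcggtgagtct
Fgf4: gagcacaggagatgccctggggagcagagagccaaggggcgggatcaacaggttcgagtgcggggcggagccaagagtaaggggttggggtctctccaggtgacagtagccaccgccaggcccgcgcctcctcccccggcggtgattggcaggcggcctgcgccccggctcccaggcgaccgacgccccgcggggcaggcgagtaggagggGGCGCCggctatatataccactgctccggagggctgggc
Sp5: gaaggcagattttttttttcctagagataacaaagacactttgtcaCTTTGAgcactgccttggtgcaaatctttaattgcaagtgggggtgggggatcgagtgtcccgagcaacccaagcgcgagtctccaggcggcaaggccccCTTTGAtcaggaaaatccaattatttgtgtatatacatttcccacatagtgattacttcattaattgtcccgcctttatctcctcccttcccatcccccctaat
Tdgf1: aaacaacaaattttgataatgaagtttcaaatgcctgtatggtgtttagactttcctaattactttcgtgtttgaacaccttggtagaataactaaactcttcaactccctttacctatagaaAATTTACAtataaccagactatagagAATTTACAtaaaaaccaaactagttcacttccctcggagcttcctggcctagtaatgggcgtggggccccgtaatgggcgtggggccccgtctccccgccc
Bmp4: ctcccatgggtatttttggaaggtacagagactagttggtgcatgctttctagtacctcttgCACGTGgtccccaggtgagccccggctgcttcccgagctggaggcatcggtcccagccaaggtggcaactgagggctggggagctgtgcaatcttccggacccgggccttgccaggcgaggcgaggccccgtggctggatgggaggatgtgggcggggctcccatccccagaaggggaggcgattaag

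Motif letters were searched on both strands of these 250-base windows, where matches to different motifs may overlap. Socs3, a STAT3-induced inhibitor of LIF signalling, was the 1 member promoter of 27 with the STAT letters TTCNNNGAA, which 7.02% of all 32851 promoters held. Sp5, a WNT-induced transcription factor, was the 1 with the TCF/LEF letters CTTTGA, at 2 places in its window and present in 13.8% of all promoters. The FOXH1 letters AATNNACA lay in Fgfr2, Spry2 and Tdgf1 (10.9% of all promoters), and in Tdgf1 they occurred at 2 places close to each other. The SMAD1/4 letters GGCGCC lay in 8 of 27 member promoters, against 9.59% of all promoters. The SMAD3/4 letters CAGAC lay in 6 of 27 (42.2% of all), the MYB letters AACNG in 15 of 27 (74.2% of all), the E-box CACGTG in Bmp4 alone (6.02% of all) and the cAMP response element TGACGTCA in 0 (1.55% of all). Member promoters were richer in G and C than promoters at large, with a median of 65.2% against 52.4%, which bears on how often any of these letters occur. A match is a description of the letters and not a binding site.

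All 9 libraries had between 16.4 M and 23.0 M tags, and their lists held 45136 to 70230 peaks, the shortest being that of TetR-MYBTA replicate 3. The share of tags in peaks was 5.48 to 7.57% in the TetR-MYBTA libraries and 7.79 to 9.78% in the other 6, so the line with the fewest peaks near members also had the lowest shares of tags in peaks, whose part in the results was not tested. Counts are therefore given both as numbers of peaks and as shares of the library's own list, and also after each list was shortened to its first 45136 rows. Of 7 embryonic stem cell genes, 3 to 5 per library had a peak at a gene end (Sox2, Klf4 and Tfcp2l1 in all 9, Esrrb and Zfp42 in 0), and of 8 genes of differentiated cells 0 to 5 did, with 0 genes in all 9 and Sox17, Gata4 and Hbb-bt in 0.

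Fewer of the peaks of the TetR-MYBTA line lay around the signalling genes. Within 50 kb of any member the TetR-MYBTA libraries had 223, 218 and 184 peaks, the TetR libraries 323, 289 and 276, and the WT libraries 251, 274 and 270. As a share of all peaks the mean was 0.388% ± 0.0175 (SD, n = 3) for TetR-MYBTA, 0.456% ± 0.0161 (SD, n = 3) for TetR and 0.444% ± 0.00948 (SD, n = 3) for WT, a ratio of 0.863 between TetR-MYBTA and the mean of the other 6. The 3 TetR-MYBTA libraries were the lowest of the 9 on all of these scales, and TetR and WT overlapped as shares. In lists of equal length the windows held 168, 178 and 184 peaks in TetR-MYBTA and 205 to 223 in the other 6.

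The same direction was seen around genes in general and in the wider neighbourhood of the members. The windows of all protein-coding genes held 77.3% of TetR-MYBTA peaks and 81.4% of the other libraries' peaks, a ratio of 0.950. In the stretch from 50 kb to 2 Mb on either side of the members the ratio was 0.905, and the member windows divided by these surroundings gave 0.953, with TetR-MYBTA and the other libraries overlapping. Over single genes the median ratio was 0.898 for the 36 members and 0.947 for the 20443 genes tested, and 25 of 36 members had a ratio below 1, as did 57.2% of all genes. Against their own surroundings 18 of 36 members lay lower, beside 49.3% of all genes.

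By pathway, the share of whole lists within 50 kb was lower in every TetR-MYBTA library around FGF-ERK, WNT and BMP genes and overlapped around LIF and NODAL genes, a division that depended on the setting. FGF-ERK windows held 37, 39 and 34 peaks in TetR-MYBTA, 59, 51 and 48 in TetR and 52, 48 and 54 in WT, a share ratio of 0.821. BMP windows held 46, 43 and 32, then 68, 59 and 58, then 51, 55 and 56 in the same order, a ratio of 0.804. WNT windows held 60, 59 and 49, then 91, 83 and 79, then 65, 76 and 72, a ratio of 0.839. In these 3 pathways every TetR-MYBTA library had a smaller share than each of the other 6, narrowly so for FGF-ERK (at most 0.0753% against at least 0.0761%). FGF-ERK libraries overlapped within 10 kb (ratio 0.894), when scaled to the same chromosome (0.843) and in the upper 50% of the lists (0.793). The WNT ratio rested on 1 gene: without Tcf7l1, left out after its values were seen, it was 0.970 and the libraries overlapped. LIF windows (33, 33 and 31 peaks in TetR-MYBTA, 45, 41 and 39 in TetR, 37, 41 and 36 in WT) had a ratio of 0.949, and NODAL windows (47, 44 and 38, 60, 55 and 52, 46, 54 and 52) a ratio of 0.940, both with overlapping shares. NODAL shares did not overlap within 10 kb (0.834), within 100 kb (0.909), when scaled to the same chromosome (0.899) or without TetR-MYBTA replicate 3 (0.915). LIF windows did not overlap in numbers of peaks (0.812) or without TetR-MYBTA replicate 3 (0.886). For BMP and NODAL genes the surroundings out to 2 Mb were also low in TetR-MYBTA, with ratios of 0.827 and 0.850, and for FGF-ERK genes they had 0.964 with overlapping libraries. Divided by its surroundings, the BMP share had a ratio of 0.967 with overlapping libraries, the FGF-ERK share had 0.851 with overlapping libraries and the WNT share 0.868 without overlap (0.969 with overlap when Tcf7l1 was left out). Differences between pathways were not tested.

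**Figure D1:**
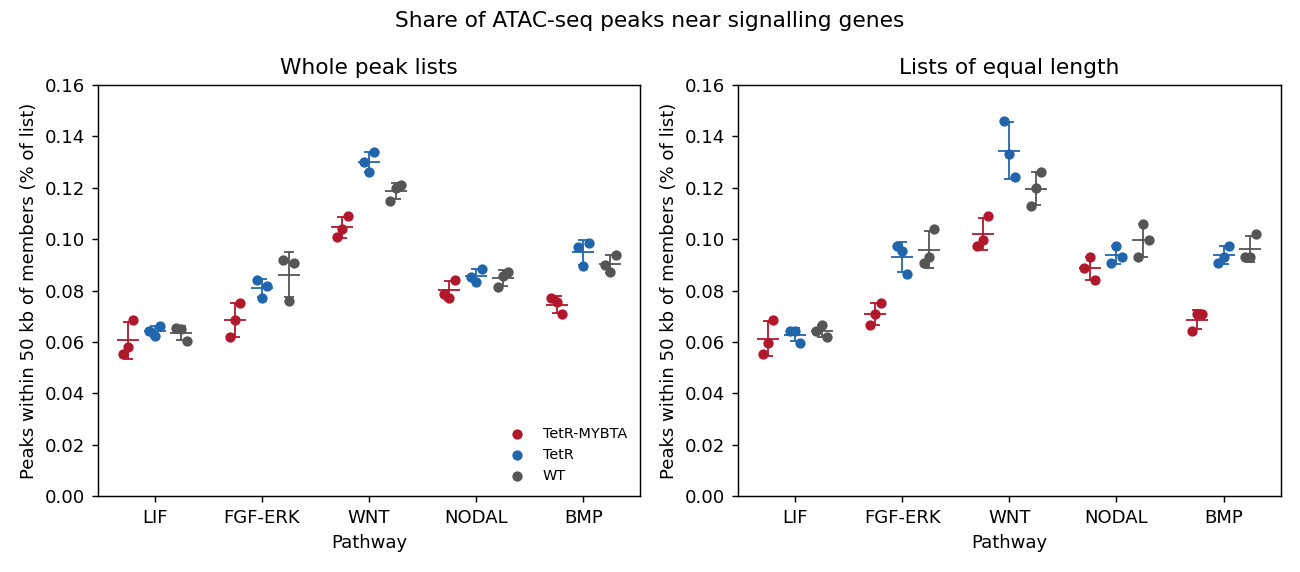
Share of each library's ATAC-seq peaks (percent of the list, y axis) within 50 kb of the members of 5 pathways (x axis), in whole lists on the left and in the first 45136 rows of each list on the right. Points are libraries, and bars give the mean and SD of 3 libraries per line; TetR-MYBTA lies below both other lines for FGF-ERK, WNT and BMP, and within or near their range for LIF and NODAL.

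Single members were compared by the share of peaks in their 50-kb windows, in peaks per 10000 peaks of the list. Every TetR-MYBTA library lay below all other 6 for 5 of 36 members (Junb, Fgfr2, Tcf7l1, Fzd7 and Smad7), or 13.9%, beside 10.2% of all 20443 genes with a peak. No member lay above in every TetR-MYBTA library, 0 of 36, where 4.47% of all genes did. In a two-sided exact permutation test of TetR-MYBTA against the other 6 (84 arrangements, smallest possible p 0.0119), adjusted by Benjamini-Hochberg over all genes, 0 members and 0 genes passed 0.05, and the smallest adjusted p was 0.112. With p bounded at 0.0119, no member could pass by its own values unless a large part of all genes also reached that bound. The adjusted test therefore cannot decide whether a single member differed. An unadjusted exact p under 0.05 was reached by 8 of 36 members (22.2%) and by 23.4% of all genes. By this count, which joins both directions, the members stood about where genes in general stood.

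**Figure D2:**
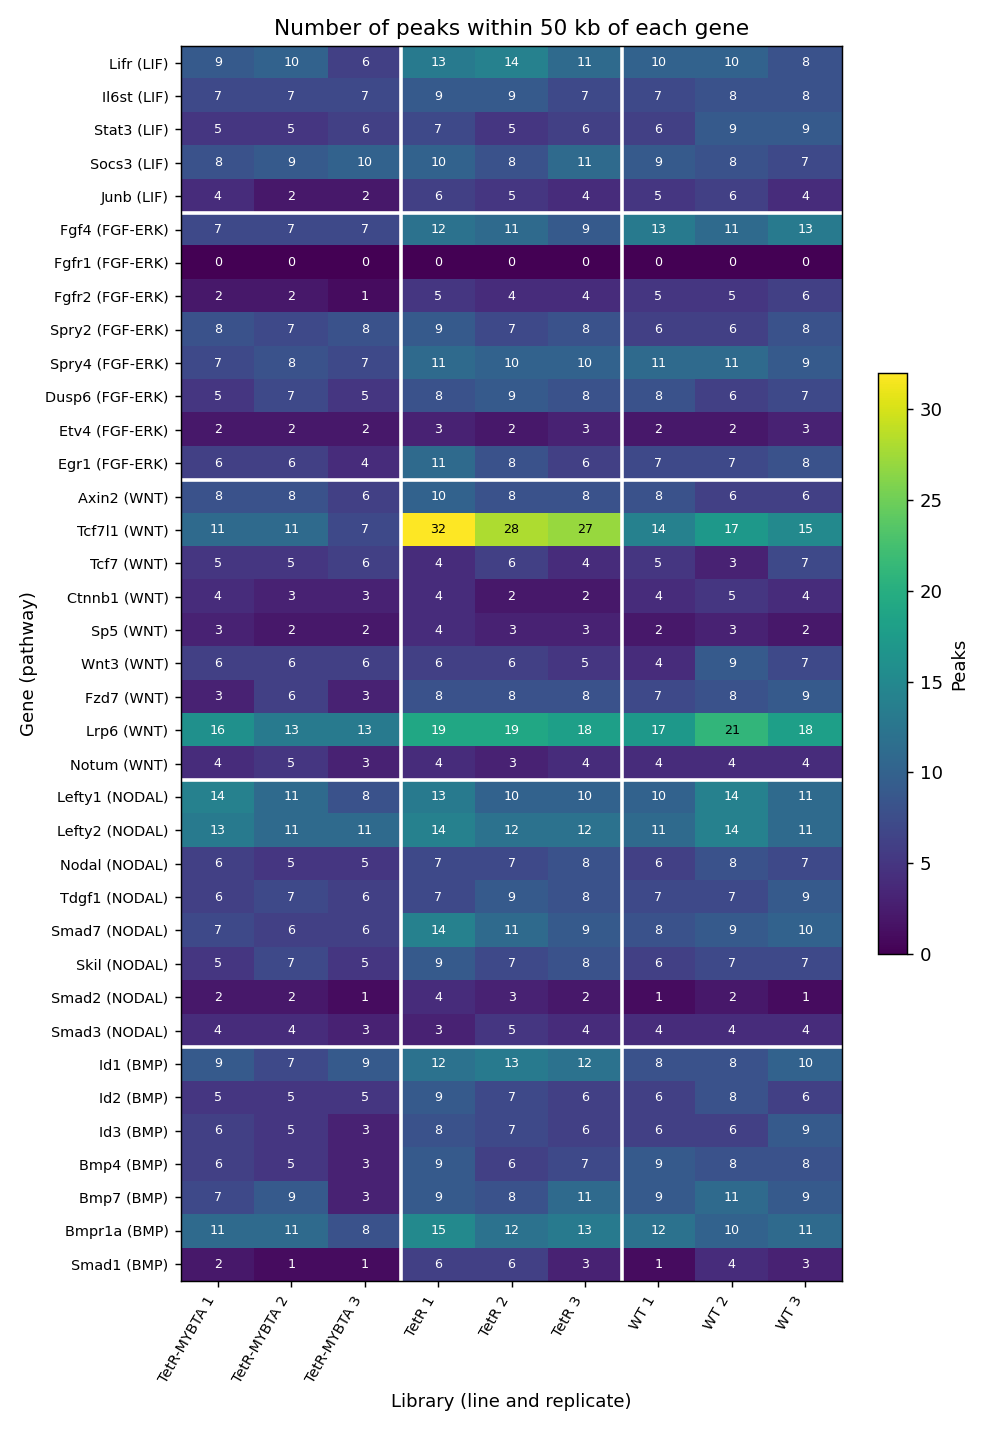
Number of ATAC-seq peaks within 50 kb of each matched gene (rows, with the pathway in brackets) in each of the 9 libraries (columns), printed in the cells and shaded from 0 to 32 peaks. Tcf7l1 in the TetR libraries (27 to 32 peaks) is the brightest part of the map, and Fgfr1 has 0 in all columns.

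Among the receptors, Fgfr2 and Fzd7 had the clearest shortage in TetR-MYBTA. Fgfr2 (chr7:130162451-130266808), a receptor for FGF ligands, had 2, 2 and 1 peaks in TetR-MYBTA, 5, 4 and 4 in TetR and 5, 5 and 6 in WT. The groups did not overlap, the ratio of shares was 0.388, and the exact p was 0.0119 (adjusted p = 0.112). Its surroundings out to 2 Mb had a ratio of 0.649. A peak at the start of the gene was present in all 9 libraries, and those missing lay upstream and in the first part of the gene body: a region in the gene at chr7:130252078-130252402, 14.6 kb from the start, had a peak in all 6 other libraries and in 0 of TetR-MYBTA. Fgfr1, another FGF receptor, had 0 peaks within 50 kb in all 9 libraries, as did 6.6% of protein-coding genes. Fzd7 (chr1:59482147-59486955), a WNT receptor of the Frizzled family, had 3, 6 and 3 peaks in TetR-MYBTA, 8, 8 and 8 in TetR and 7, 8 and 9 in WT. All 3 TetR-MYBTA libraries were lower than the rest, with a ratio of 0.575 and an exact p of 0.0119 (adjusted p = 0.112), while the surroundings had 0.869. A region 25 kb ahead of the gene (chr1:59456893-59457177) was missing in TetR-MYBTA and present in all other 6.

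Other receptors differed less. Lrp6, the WNT co-receptor, had many peaks, with 16, 13 and 13 in TetR-MYBTA, 19, 19 and 18 in TetR and 17, 21 and 18 in WT. Its shares overlapped those of TetR, although they lay below all WT libraries (ratio to the other 6 of 0.872). Bmpr1a, a type I BMP receptor and the BMP member with the most peaks, had 11, 11 and 8, then 15, 12 and 13, then 12, 10 and 11, with overlapping shares. Lifr, the LIF receptor and the LIF member with the most peaks, had 9, 10 and 6 peaks in TetR-MYBTA, 13, 14 and 11 in TetR and 10, 10 and 8 in WT. As a share the TetR libraries stood above both other lines (TetR to WT ratio 1.25), and TetR-MYBTA and WT overlapped. Il6st, the gp130 co-receptor, ranged from 7 to 9 peaks with a ratio of 1.03.

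Of the transcriptional effectors, Tcf7l1 (chr6:72626371-72789045), the repressor that WNT signalling relieves, set the TetR line apart. It had 11, 11 and 7 peaks in TetR-MYBTA, 32, 28 and 27 in TetR and 14, 17 and 15 in WT. All 3 lines were separate from one another: the TetR-MYBTA share was 0.505 of the other 6 and 0.693 of WT, and the TetR share was 1.74 of WT. The exact p of TetR-MYBTA against the other 6 was 0.0238 (adjusted p = 0.150). Without TetR-MYBTA replicate 1, 2 or 3 the exact p was 0.143, 0.0714 and 0.143, with only 28 arrangements left. The ratio was then 0.496, 0.483 and 0.537, each time without overlap. The gene lies in a longer stretch of chromosome 6 that behaved alike, since the surroundings out to 2 Mb had a TetR to WT ratio of 1.66 and a TetR-MYBTA ratio of 0.617. Of 29 member regions with a peak in all TetR libraries and in 0 of TetR-MYBTA, 9 lay near Tcf7l1, 5 of them inside the gene.

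Junb (chr8:84976909-84978748), an AP-1 factor induced through STAT3, had 4, 2 and 2 peaks in TetR-MYBTA, 6, 5 and 4 in TetR and 5, 6 and 4 in WT. Its shares did not overlap, narrowly, with TetR-MYBTA replicate 1 at 0.670 and WT replicate 3 at 0.671 peaks per 10000 (ratio 0.611, exact p 0.0119, adjusted p = 0.112). In lists of equal length Junb had 3, 2 and 2 peaks in TetR-MYBTA, 2, 4 and 4 in TetR and 3, 2 and 2 in WT. The libraries then overlapped (ratio 0.824, exact p 0.702, adjusted p = 0.973). A region 18.6 kb ahead of the gene (chr8:84997349-84997586) had a peak in all other 6 libraries and in 0 of TetR-MYBTA. Smad1, the BMP transducer, had 2, 1 and 1 peaks in TetR-MYBTA, 6, 6 and 3 in TetR and 1, 4 and 3 in WT, with a ratio of 0.408 and an overlap with WT replicate 1. Stat3 (5 to 9 peaks, ratio 0.899), Ctnnb1 (2 to 5, ratio 1.10), Smad3 (3 to 5, ratio 1.05), Smad2 (1 to 4, ratio 0.896) and Tcf7 (3 to 7, ratio 1.3) had overlapping shares. Most of these windows hold so few peaks that 1 peak more or less moves the ratio strongly.

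Among the ligands, Bmp4 and Fgf4 were low in TetR-MYBTA without standing apart from all other libraries. Bmp4 (chr14:46383525-46390669), a BMP ligand, had 6, 5 and 3 peaks in TetR-MYBTA, 9, 6 and 7 in TetR and 9, 8 and 8 in WT, with a ratio of 0.672 and an exact p of 0.0357 (adjusted p = 0.181). Its shares lay below all WT libraries and overlapped those of TetR. A region upstream of Bmp4, 7.66 kb from the gene (chr14:46398325-46398710) was present in all 6 other libraries and missing in TetR-MYBTA. Fgf4, the main FGF ligand of these cells and the FGF-ERK member with the most peaks, had 7, 7 and 7, then 12, 11 and 9, then 13, 11 and 13. In numbers the groups did not overlap, and in shares TetR-MYBTA replicate 3 (1.55 peaks per 10000) overlapped TetR replicate 3 (1.53), with a ratio of 0.710. Nodal had 5 or 6 peaks in TetR-MYBTA and 6 to 8 in the others (ratio 0.864), Bmp7 3 to 9 and 8 to 11 (0.742), and Wnt3 6 in each and 4 to 9 (1.14). Surroundings out to 2 Mb had ratios of 0.947 for Bmp4, 0.762 for Fgf4, 0.772 for Nodal, 0.554 for Bmp7 and 1.14 for Wnt3.

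**Figure D3:**
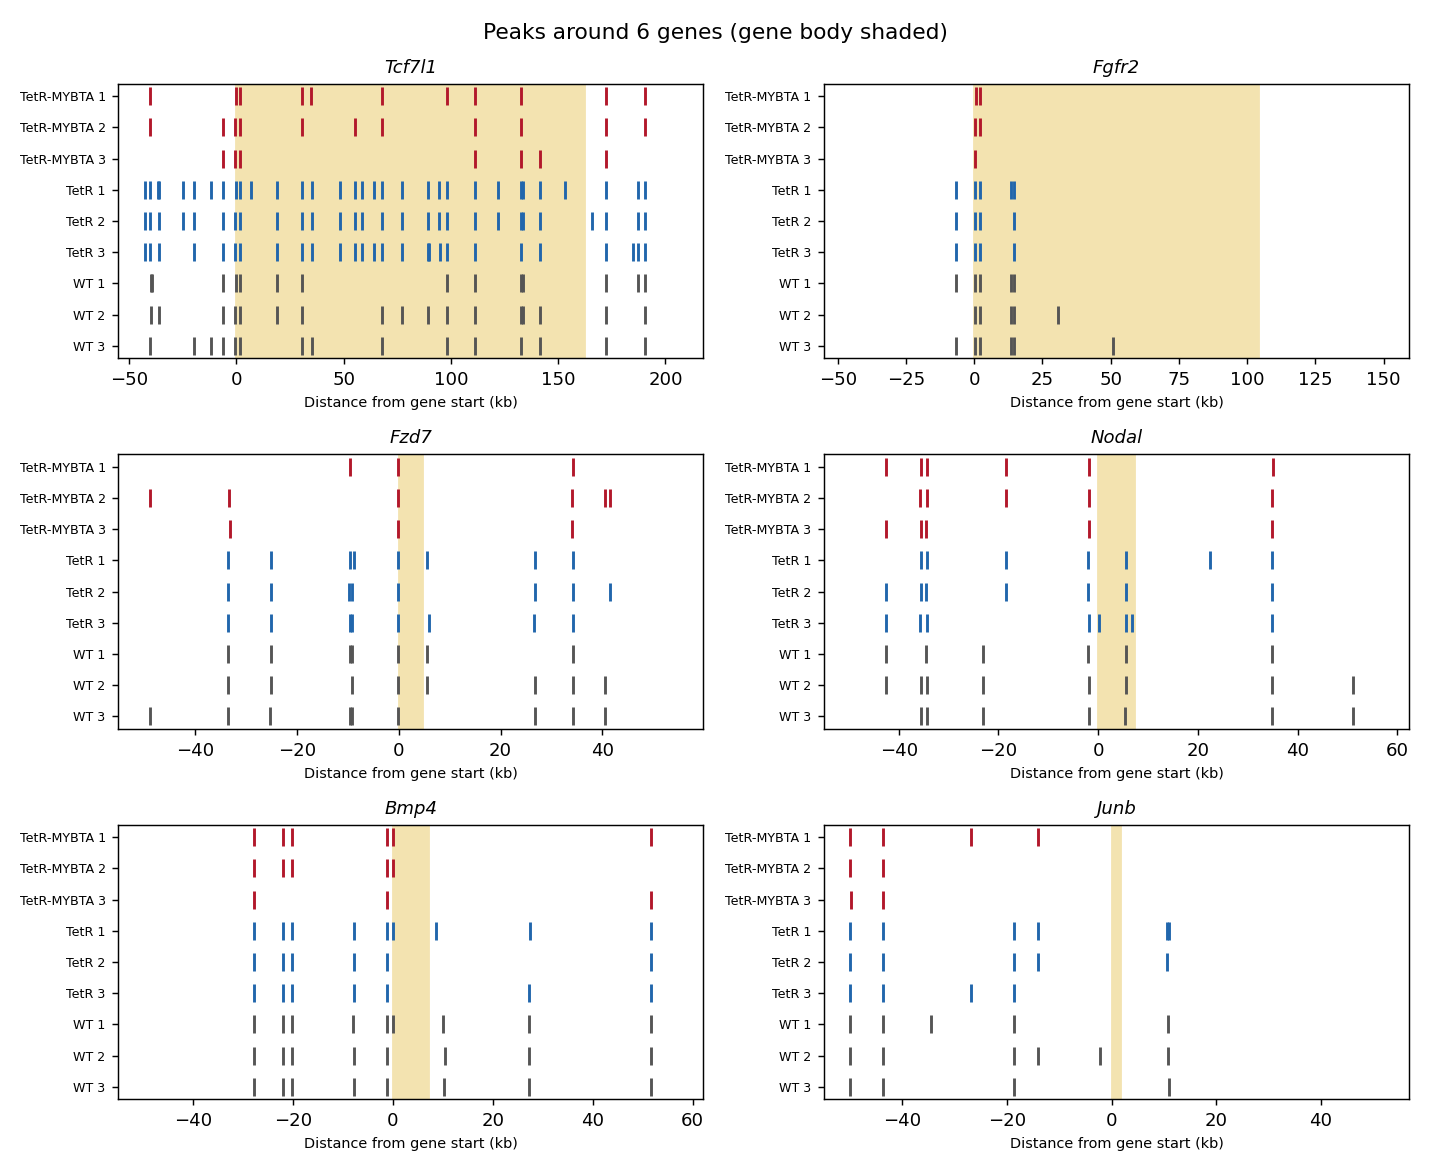
Position of each peak in each library (rows) around 6 genes, in kb from the gene start in the direction of transcription (x axis), with the gene body shaded. The dense TetR rows of Tcf7l1, the empty stretch of Fgfr2 beyond its start in TetR-MYBTA, and single positions filled in all TetR and WT rows but in 0 TetR-MYBTA rows near Fzd7, Nodal, Bmp4 and Junb can be read from the ticks.

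Feedback inhibitors and target genes had ratios on both sides of 1. Smad7, which blocks NODAL and BMP receptors, had 7, 6 and 6 peaks in TetR-MYBTA, 14, 11 and 9 in TetR and 8, 9 and 10 in WT. The groups did not overlap (ratio 0.732, exact p 0.0238, adjusted p = 0.150), and its surroundings had a ratio of 0.812. Lefty2, an antagonist of NODAL and the NODAL member with the most peaks, had 13, 11 and 11, then 14, 12 and 12, then 11, 14 and 11 peaks, with a ratio of 1.10 and overlapping shares. Its window shares peaks with that of its neighbour Lefty1, which had a ratio of 1.11, and the surroundings of both had 1.15. Socs3 had 8, 9 and 10 peaks in TetR-MYBTA, 10, 8 and 11 in TetR and 9, 8 and 7 in WT, a ratio of 1.2 with overlapping shares. A Spry2 ratio of 1.23 stood beside 0.827 for Spry4, both inhibitors of FGF signalling, and Axin2 (1.11) and Notum (1.19), inhibitors of WNT signalling, lay above 1. The Id genes, the usual BMP targets, had ratios of 0.939 (Id1), 0.843 (Id2) and 0.756 (Id3), all with overlapping libraries. Surroundings out to 2 Mb had ratios of 0.915 for Id1, 0.622 for Id2 and 0.717 for Id3. For Spry2 they had 1.15, for Spry4 0.995, for Axin2 1.17, for Notum 1.08 and for Socs3 0.966.

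The calls depended on how peaks were scaled. By the number of peaks, not scaled to the list, 8 members (22.2%) were lower in every TetR-MYBTA library, beside 11.7% of all genes, and 0 were higher, beside 0.832%. These 8 were Fgf4, Fgfr2, Spry4, Tcf7l1, Fzd7, Lrp6, Smad7 and Id2. In lists of equal length 6 (16.7%) were lower, beside 5.98% of genes, and 0 were higher, beside 3.18%. These 6 were Fgf4, Spry4, Egr1, Tcf7l1, Smad7 and Bmp7. Tcf7l1 and Smad7 stood in all 3 of these sets, while Junb, Fgfr2 and Fzd7 left the set at equal length. At equal length Fgf4 had 5, 6 and 7 peaks in TetR-MYBTA against 8 to 11 in the other 6, and Spry4 6, 7 and 7 against 8 or 9.

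**Figure D4:**
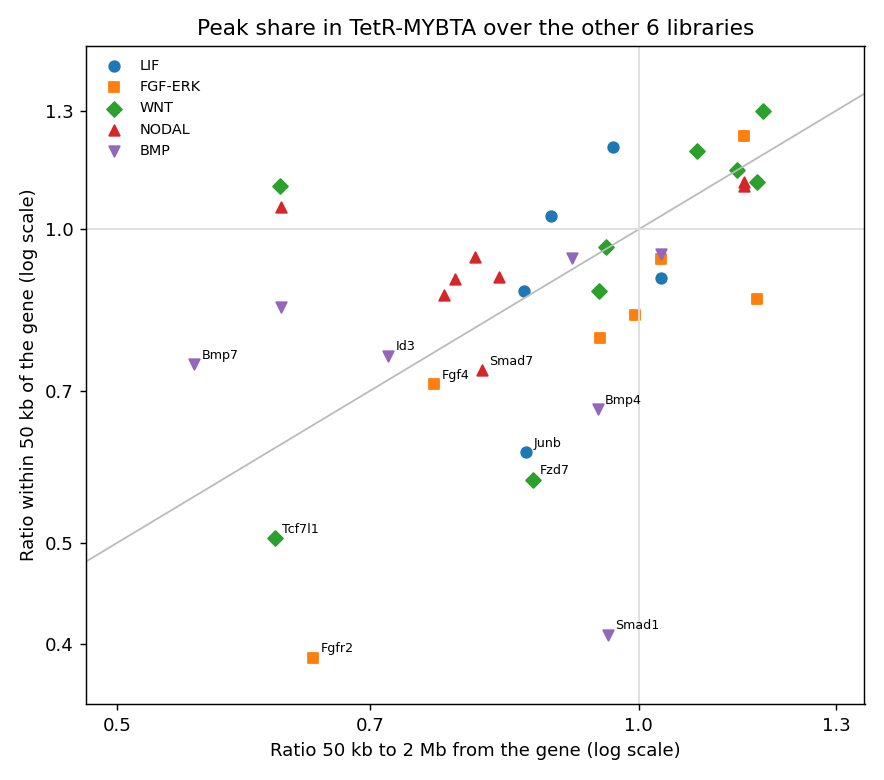
Ratio of peak shares in TetR-MYBTA to the other 6 libraries for 36 members, from 50 kb to 2 Mb away from the gene (x axis, log scale) and within 50 kb (y axis, log scale), with marker shape and colour for the pathway and a grey diagonal where both are equal. Fgfr2, Tcf7l1, Smad1, Fzd7, Junb and Bmp4 lie below the diagonal, and 18 of 36 members lie below it in all.

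Against TetR alone, 8 members (22.2%) were lower in every TetR-MYBTA library, where 17.8% of genes were. They were Lifr, Junb, Fgfr2, Tcf7l1, Fzd7, Smad7, Id3 and Smad1. In the same comparison 1 member was higher (Wnt3, 2.78%), where 10.1% of genes were. Against WT alone, 10 members (27.8%) were lower, beside 20.0% of genes, and 0 were higher, beside 7.83%. These 10 were Junb, Fgf4, Fgfr2, Egr1, Tcf7l1, Ctnnb1, Fzd7, Lrp6, Smad7 and Bmp4. Between TetR and WT, 4 members (11.1%) were lower in TetR (Stat3, Fgf4, Fgfr2 and Ctnnb1), beside 11.4% of genes. Another 4 (11.1%) were higher (Lifr, Tcf7l1, Smad2 and Id1), beside 8.57%. These comparisons share libraries, and with 3 against 3 no exact test can go below p = 0.10, so they are counts only. For Fgfr2 the shares of whole lists were separate in all 3 lines, with WT above TetR (ratio of TetR to WT 0.745) and TetR above TetR-MYBTA (0.454), while TetR and WT overlapped in numbers of peaks. At equal length the counts were 2, 1 and 1 in TetR-MYBTA, 2, 4 and 2 in TetR and 3, 3 and 5 in WT, so TetR overlapped both other lines.

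At the ends of most of these genes a peak was present in every library. Of 37 members, 22 (59.5%) had a peak within 1 kb of a gene end in all 9 libraries, beside 44.2% of protein-coding genes, and 10 had one in some libraries (27.0%, beside 18.3%). Between 25 and 30 members per TetR-MYBTA library had such a peak, 27 to 30 per TetR library and 26 or 27 per WT library. Over all protein-coding genes the TetR-MYBTA libraries had fewer, 11158 ± 463 (SD, n = 3) against 12199 ± 246 in TetR and 12144 ± 103 in WT. With so few members and this spread between libraries, the member counts cannot show whether they shared that shortage. Of the peaks within 50 kb, those at member ends made up 5.80 ± 0.542 per 10000 peaks in TetR-MYBTA and 5.24 ± 0.539 in the other 6 (ratio 1.11), with overlapping libraries. Those at the ends of other genes had a ratio of 0.921, also with overlap. Those outside genes and their ends, or in other genes, made up 23.2 ± 1.24 and 27.1 ± 0.758 (ratio 0.854), with no overlap. Peaks inside the bodies of members had a ratio of 0.709 with overlapping libraries. Tcf7l1 was kept in these counts. The split by place was not made for all protein-coding genes, so whether it is particular to the members was not tested. The FGF-ERK genes were the most constant, with 7 of 8 (Fgf4, Fgfr2, Spry2, Spry4, Dusp6, Etv4 and Egr1) marked in all 9 libraries.

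**Figure D5:**
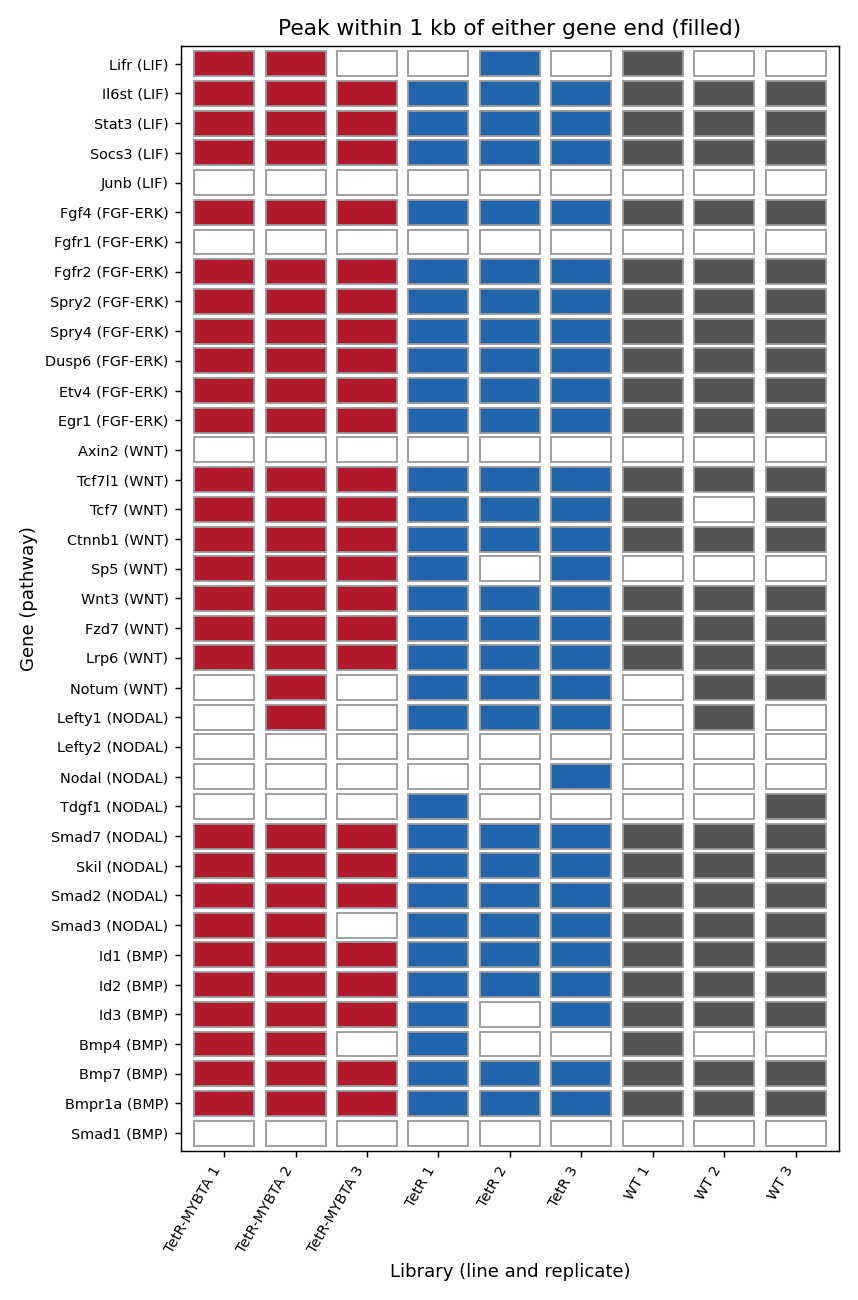
Members (rows) with a peak within 1 kb of either gene end (filled) in each of the 9 libraries (columns), in whole lists. Rows filled across all columns number 22, and Sp5 is filled in all TetR-MYBTA and in 0 WT columns.

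In whole lists Sp5 was the 1 member (2.70% of members and 2.70% of protein-coding genes) with a gene-end peak in every library of one line and none of another. All 3 TetR-MYBTA libraries had it, 1 TetR library had it at the start and another at the far end, and 0 WT libraries had it. The peak (chr2:70474931-70475171) begins 8 bases into the gene as RefSeq lists it, directly after the promoter printed above with its pair of TCF/LEF matches. In WT the nearest peak to the start lay 1.02 to 2.77 kb away. The share of peaks within 50 kb of Sp5 had a ratio of 0.961, with overlapping libraries. In lists of equal length this window held 2, 0 and 2 peaks in TetR-MYBTA, 4, 3 and 3 in TetR and 2, 2 and 2 in WT. TetR-MYBTA replicate 2 then had no gene-end peak, so the pattern of every TetR-MYBTA library and 0 WT libraries was lost.

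Gene-end peaks of the other variable members followed no line. The Lifr gene end had a peak in 2 TetR-MYBTA libraries, 1 TetR and 1 WT, Bmp4 in 2, 1 and 1, Notum in 1, 3 and 2, Lefty1 in 1, 3 and 1, Tcf7 in 3, 3 and 2, Smad3 in 2, 3 and 3, and Id3 in 3, 2 and 3. Nodal had a peak at its ends in 1 TetR library, and Tdgf1 in 1 TetR and 1 WT library. Junb, Fgfr1, Axin2, Lefty2 and Smad1 had none in any library. The listed starts of RefSeq, which lie inside the gene model for Axin2 and Lifr, gave both of these a peak within 1 kb in all 9 libraries, while Junb and Smad1 again had none. In all, 14 of the 24 members in the promoter table had a peak at a listed start in all 9 libraries, beside 35.8% of all symbols.

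Peaks of the 9 libraries that overlapped by at least 1 bp were joined into 116362 regions, of which 486 lay within 50 kb of a member. A peak in all 9 libraries was found at 107 of them (22%, beside 22.4% of all regions), and 109 were found in 1 library only (22.4%, beside 26% of all regions). Missing in TetR-MYBTA and present in all other 6 were 8 member regions (1.65% of 486, beside 1.16% of all regions), near Lifr, Junb, Fgfr2, Spry4, Fzd7, Nodal, Bmp4 and Id1. The Nodal region (chr10:61423326-61423662) is inside the gene, 5.52 kb from its start and 1.68 kb from its end. That near Lifr (chr15:7056875-7057122) lies 33.5 kb ahead of the gene model, and that near Id1 (chr2:152767735-152767972) 30.3 kb from the gene. Present in all TetR-MYBTA and in 0 of the other 6 was 1 region (0.206%, beside 0.587%), 23.2 kb beyond the Socs3 start (chr11:117947016-117947263). Where they were present, the places of the 8 missing regions in the lists ranged from 1.63 (near Lifr) to 73 (near Bmp4), 100 being the first row, and the nearest peak in TetR-MYBTA was 0.944 to 14.4 kb away.

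Between pairs of lines, 29 member regions had a peak in all TetR and in 0 TetR-MYBTA libraries (5.97%, beside 4.43% of all regions) and 4 had the reverse (0.823%, beside 1.40%), near Socs3, Dusp6, Tcf7 and Spry2. For WT and TetR-MYBTA these were 17 (3.5%, beside 2.79%) and 2 (0.412%, beside 1.23%), the latter at Socs3 and Sp5. For TetR and WT they were 13 in TetR only (2.67%, beside 2.26%) and 5 in WT only (1.03%, beside 1.37%). Thus regions lacking in TetR-MYBTA outnumbered regions lacking in the compared line near members, as they did in the whole series. These counts use whole lists of unlike length: 45136 to 59675 peaks in TetR-MYBTA, 58762 to 70230 in TetR and 56612 to 63098 in WT. What part list length had in them was not tested.

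For the 107 constant regions the place was also compared, as the rank in each list among the 26020 regions of the whole series with a peak in all 9 libraries, 100 being the first. The same regions are ranked in each list, so a list's length does not enter. The lists follow HOMER's own peak order, whose meaning the file headers do not state. The median place averaged 44.8 ± 3.57 over the TetR-MYBTA lists, 51.9 ± 3.1 over the TetR lists and 54.6 ± 0.47 over the WT lists (SD, n = 3). In 11 of 107 regions all TetR-MYBTA libraries were lower than the other 6 (10.3%, beside 8.92% of all constant regions), and in 2 they were higher (1.87%, beside 11.7%). The lower ones included a pair near Id2, a pair near Dusp6, 1 of them at the Dusp6 start, and 1 each near Bmp4 (chr14:46391843-46392064, 1.17 kb from the gene), Bmpr1a, Il6st, Spry2, Spry4, Tcf7l1 and Lrp6. The higher ones lay near Spry2 (chr14:105865595-105865843, place 84.3 to 90.9 against 14.4 to 68.4) and Lefty2 (60.2 to 80.3 against 38 to 51.5).

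The rest of the same pathways was examined through 90 further genes, among them ligands, receptors, kinases and transcription factors. Of these 9 were lower in every TetR-MYBTA library (10%, beside 10.2% of all genes): Jak2 and Pim3 (LIF), Fgfr3, Mapk3 and Fos (FGF-ERK), Csnk1a1 (WNT), Ski and Tgfbr2 (NODAL) and Msx2 (BMP). Higher in every TetR-MYBTA library were 5 (5.56%, beside 4.47%): Lif and Socs2 (LIF), Znrf3 (WNT), Inhbb (NODAL) and Bmpr1b (BMP). Lif, the cytokine that starts the LIF pathway, had 8, 10 and 7 peaks in TetR-MYBTA, 8, 7 and 5 in TetR and 5, 8 and 7 in WT, a share ratio of 1.46. Jak2, a kinase of the same pathway, had 6, 2 and 3, then 11, 8 and 7, then 8, 8 and 7, a ratio of 0.517. Inhbb, an activin subunit that signals through the NODAL transducers, had 9 in each TetR-MYBTA library, 10, 8 and 7 in TetR and 5 in each WT library, a ratio of 1.6. Within 1 pathway both directions therefore occurred, and the median ratio over the 90 genes was 0.917, near the 0.947 of all genes. For their windows together the share ratio was 0.916. From 50 kb to 2 Mb around them it was 0.912, and the windows divided by these surroundings gave 1, with overlapping libraries. Surroundings of the single genes named here are not given, and whether their ratios belong to longer stretches was not tested.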

How the data were processed

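ATAC-seq of 9 libraries was used, grouped by their titles. The submitters' processing notes list, without roles or order, HOMER 4.11, deepTools 3.5.5, Picard, Bowtie2, Trim Galore 0.6.10 and FastQC, on build mm10. Nothing on a shift for the Tn5 offset is given in the sources used here. Per the file headers, the authors ran HOMER on every library by itself, keeping peaks with at least a 4-fold excess over 10 kb, a Poisson p-value of at most 0.0001 against that region, a false discovery rate of 0.001 and no more than 1 tag per position. Every row of the deposited lists has a score of 1, which leaves the presence or absence of peaks and their order in the list to compare. No interval is given for single peaks, since their tag counts were not used.

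The members and gene lists were chosen with earlier results of these data known. A peak counted when it overlapped a window by at least 1 bp. Shares are per 10000 peaks of a list for genes and percent of a list for pathways. Genes came from RefSeq (GRCm38.p6), and promoters from its promoter table. Two-sided exact permutation tests ran over every protein-coding gene with a peak within 50 kb, with Benjamini-Hochberg adjustment, and the procedure was tested on simulated data. Values in every library are given for members whose TetR-MYBTA libraries do not overlap the other 6, members with variable gene-end peaks, the member of each pathway with the most peaks, and regions present in all libraries of one line and none of another; further genes were named after their values were seen. Results were also computed with unscaled numbers, equal-length lists, the upper 50% of lists, same-chromosome scaling, distances of 10 kb and 100 kb (500 bp and 2.5 kb for gene ends), peak centres, leaving out each library and the replicate number as a block. Added after seeing the data were leaving out Tcf7l1 and dividing by the surroundings. Python 3.11.15, numpy 2.4.6, pandas 2.3.3 and matplotlib 3.10.9 were used.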

Additional observations from a re-analysis of the deposited data

How the results depend on the processing

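The ratio of TetR-MYBTA to the other 6 for the share within 50 kb was 0.863 for all members, 0.821 at equal list length, 0.743 for unscaled numbers of peaks and 0.953 after division by the surroundings, where the libraries overlapped. For LIF genes it was 1.15 in the upper 50% of the lists and 0.812 in numbers. FGF-ERK gave 0.705 in numbers, and its libraries overlapped in the upper 50% (0.793), under same-chromosome scaling (0.843) and within 10 kb (0.894). WNT gave 0.802 at equal length, 0.721 in numbers, 0.778 scaled to the same chromosome and 0.970 without Tcf7l1. NODAL gave 0.809 in numbers and 0.834 within 10 kb, and its libraries did not overlap within 10 kb, within 100 kb (0.909), under same-chromosome scaling (0.899) and without TetR-MYBTA replicate 3 (0.915). BMP gave 0.724 at equal length, 0.627 in the upper 50%, 0.697 in numbers, 0.849 within 10 kb and 0.851 within 100 kb. Members lower in every TetR-MYBTA library numbered 8 in numbers of peaks (11.7% of all genes), 3 under same-chromosome scaling (9.21% of all genes), and 5 to 9 when 1 library was left out (11.3 to 15.8% of all genes), with 9 without TetR-MYBTA replicate 3 (15.8%). Junb (1.07) and Smad7 (1.05) lay above 1 in the upper 50% of the lists. The cause of these changes was not tested. The count of 22 members with a gene-end peak in all 9 libraries ranged from 15 (upper 50% of the lists) to 26 (2.5 kb from a gene end) under the 14 alternatives run. In all 17 alternatives of the exact test 0 members passed. The smallest p reached was 0.0119 to 0.037 in these settings, so passing depended on how many genes reached it. This agreement therefore says little about single members. Libraries with the same replicate number did not deviate together (correlations from -0.0553 to 0.0942), and with the replicate number as a block 0 members passed and 5, in place of 8, had an unadjusted exact p under 0.05, as did 17.4% of all genes. Lists without tag counts limit what can be seen: a peak near the calling threshold can be missing without a large change in signal, and TetR-MYBTA had the smallest share of tags in peaks.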
